A study of Drosophila melanogaster with 8 samples.

Results

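The basement membrane is the thin sheet of extracellular matrix that lines the basal face of epithelia and wraps muscle, fat body and the other organs of the larva. In Drosophila it is built on networks of type IV collagen and of laminin, which the proteoglycan perlecan and the linker protein nidogen connect, and much of the material is secreted into the hemolymph by fat body cells and hemocytes and then deposited on other tissues. Type IV collagen has 2 chains in the fly, encoded by Col4a1 and viking (vkg). The 10 genes described here are these collagen genes, the laminin subunit genes LanA, LanB1 and LanB2, the perlecan gene trol, the nidogen gene Ndg, and the genes of the matrix partners SPARC, Peroxidasin (Pxn) and Papilin (Ppn). They were listed by symbol and found by FlyBase identifier, which gave 9 of the 10 among 17445 features in the count files. The current identifier of trol is not among those of the files, and trol was not analysed here. The list was selected on mutant against control read counts of these same libraries, in which Col4a1 and vkg were lower in mutants, so differences of its genes between genotypes are given as a description. Their calls in the fit over all features are listed once, beside the share called over all features, and support nothing.

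RNA was sequenced from whole second-instar larvae (mid-L2) raised for 60 hours at 25 °C, with 25 larvae pooled in each sample. Larvae of genotype w[1118]; Ldh[16/17] carried a combination of mutant alleles of Lactate dehydrogenase (Ldh), and larvae of genotype w[1118]; Ldh[precise] carried a precise excision at Ldh and served as controls. Both groups share the w[1118] background. There were 4 libraries per genotype, mutant replicates 1, 2, 3 and 6 and control replicates 1, 2, 5 and 6, and nothing in the labels says that they came from separate cultures, so the spread between them may be partly technical.

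Few reads stand behind any of these genes. Between 371700 and 560865 reads per library were assigned to features, and 97.8% to 98.1% of the uniquely aligned reads fell in no feature. Mutant libraries had 469882 ± 34900 assigned reads and control libraries 438054 ± 84060 (mean ± SD, n = 4 each), a difference within the spread between libraries (exact permutation test, two-sided p = 0.543). This rests on control replicate 5, which had the most reads. Without it the mutants had 72765.5 more reads on average (exact permutation test, two-sided p = 0.0571). Whether the counting used strand is not given, so transcripts of a gene and of an opposite gene cannot be told apart, and a value below belongs to the feature, whichever strand its reads came from. Of all gene-assigned reads, 94.6% lay on features with an exon of another gene opposite. The 12564 annotated features without one had a median of 1 read over the 8 libraries. Which strand was counted was not tested. A level below may therefore not be that of the named gene's mRNA, even where no exon lies opposite. The genotype labels were checked at Ldh, where no mutant library had a read (0 in each of 4) while control replicates 1, 2, 5 and 6 had 4, 3, 5 and 1 (exact permutation test of log2(CPM + 1), two-sided p = 0.0286, the smallest that this design can give).

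Col4a1 and vkg lie head to head on chromosome arm 2L. In the BDGP6 annotation Col4a1 (FBgn0000299) runs from 5029609 to 5037279 on the plus strand and vkg (FBgn0016075) from 5012144 to 5028191 on the minus strand, so that transcription of the pair starts from either side of a gap of 1417 bp that holds no other annotated gene. Their longest coding regions encode 1779 and 1940 codons. No exon of another annotated gene lies opposite an exon of either, and no feature of the count files lies on their other strand. The same holds for the laminin genes: LanA (FBgn0002526; 3L, 6203831 to 6218022, minus strand), LanB1 (FBgn0261800; 2L, 7811438 to 7820771, plus strand) and LanB2 (FBgn0267348; 3L, 9614914 to 9623980, plus strand). LanA ends 41.1 kb from Ldh on the same arm. SPARC (FBgn0026562; 3R, 26869238 to 26871995, minus strand) and Ppn (FBgn0003137; 3R, 28520665 to 28540324, minus strand) likewise have no counted feature opposite. The remaining pair do. Ndg (FBgn0026403; 2R, 10313891 to 10322104, plus strand) lies opposite CG34222 over 158 bp of coding sequence in exon 8 of 12, and Pxn (FBgn0011828; 3L, 2601455 to 2630064, minus strand) lies opposite CG16986 over 82 bp of the 3′ UTR in exon 10 of 10. An intron of Pxn also holds lncRNA:CR45982 on the other strand, which had 0 to 2 reads per library.

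**Figure D1:**
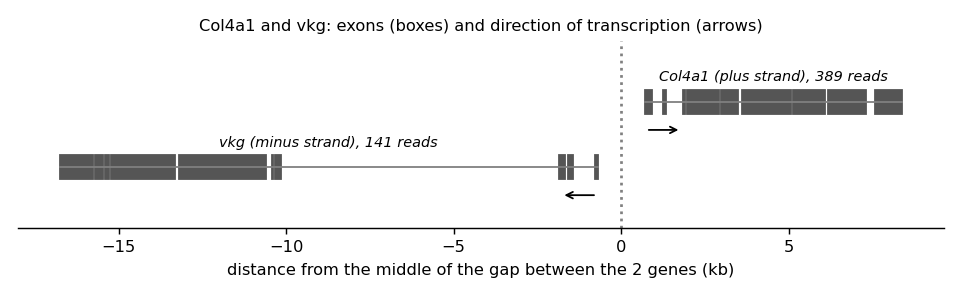
Map of Col4a1 and vkg, with exons as boxes, introns as lines and arrows for the direction of transcription, on an axis of distance in kb from the middle of the gap between them. The genes point away from each other across a gap of 1417 bp, and 389 reads were counted on Col4a1 and 141 on vkg over the 8 libraries.

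The collagen genes were the most counted members. Together Col4a1 and vkg held 530 of the 756 reads of the 9 genes, or 70.1%, and Pxn held a further 129. The other 6 genes had 10 to 22 reads each over all 8 libraries, never more than 6 in any library, and stayed below the expression filter that removes features with too few reads to compare. The 9 genes together took 0.0208% of all gene-assigned reads. Col4a1 ranked 60 by reads among the 12564 annotated features without an opposite-strand exon, and vkg ranked 231. The median of these features was 1 read over the 8 libraries.

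Levels are given as CPM, the reads of a feature per 1000000 gene-assigned reads of its library after TMM scaling, and a single read was worth 1.73 to 2.61 CPM. Compared per kilobase of exon, control levels were highest for Col4a1, at 21.0 ± 1.84 CPM per kb (SD, n = 4). The next 3 were vkg at 7.53 ± 1.57, Pxn at 5.71 ± 2.25 and SPARC at 4.92 ± 3.33, which do not differ beyond their spread. LanB2 had 1.03 ± 0.227 CPM per kb, LanB1 0.637 ± 0.516, LanA 0.611 ± 0.133, Ndg 0.342 ± 0.238 and Ppn 0.175 ± 0.123. Neighbours in this lower part of the order overlap within their spread. The order says how densely each feature was counted and, without the strand, not how abundant the mRNA was.

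The feature of Col4a1, which encodes one of the 2 collagen IV chains, had lower counts in mutants. Whether its reads came from collagen mRNA was not tested. The feature had 41, 38, 36 and 45 reads in mutant replicates 1, 2, 3 and 6. In control replicates 1, 2, 5 and 6 it had 57, 54, 67 and 51. All 4 controls thus had more reads than any mutant, although the libraries differ in depth. Scaled for depth, the mutants had 98.7, 76.1, 75.1 and 99.3 CPM and the controls 142.9, 127.0, 115.8 and 133.3 CPM, in the same order of replicates. The groups did not overlap, and the mutants fell into a lower pair (replicates 2 and 3) and a higher pair (replicates 1 and 6). The means were 87.3 ± 13.5 and 129.8 ± 11.3 CPM (SD, n = 4 each). On the log2 scale the difference was -0.57 (SE 0.16), or 1.48-fold lower in mutants.

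The feature of vkg, the gene of the other chain, had lower CPM in mutants as well, over fewer reads. It had 14, 12, 11 and 15 reads in mutant replicates 1, 2, 3 and 6 and 23, 19, 33 and 14 in control replicates 1, 2, 5 and 6. In CPM these are 33.7, 24.0, 23.0 and 33.1 for the mutants and 57.6, 44.7, 57.1 and 36.6 for the controls. The groups did not overlap, but the lowest control, replicate 6, was close to the highest mutant, replicate 1, at 36.6 against 33.7 CPM, and a single read in that control was worth 2.61 CPM. The means were 28.4 ± 5.74 and 49.0 ± 10.2 CPM (SD, n = 4 each), with a log2 fold change of -0.80 (SE 0.26), or 1.75-fold lower.

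**Figure D2:**
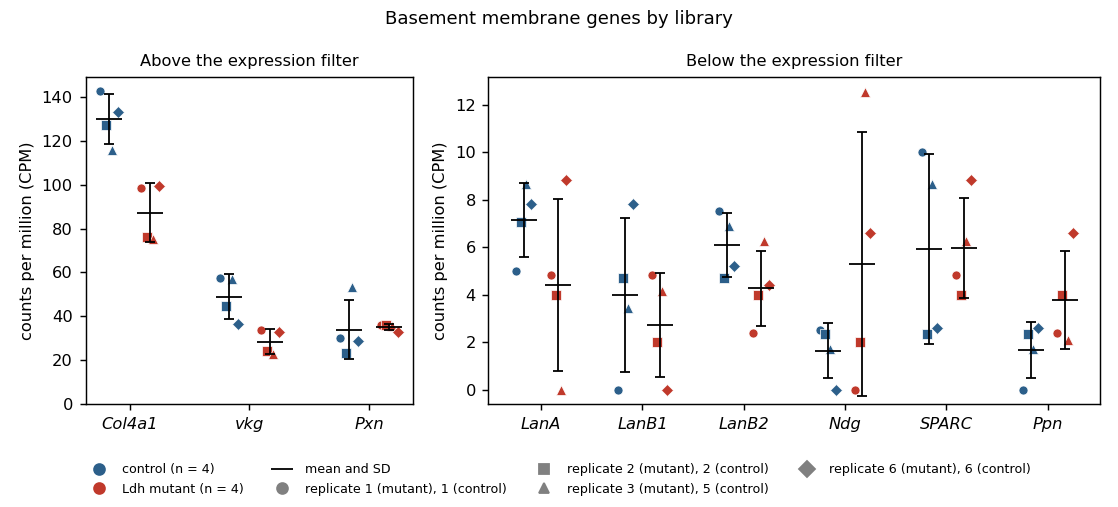
CPM of the 9 genes in each library, on one axis for the 3 genes above the expression filter and another for the 6 below it. Points are libraries, blue for controls and red for mutants, with a symbol for the replicate, and bars give the mean and SD of 4. Col4a1 (75.1 to 99.3 CPM in mutants, 115.8 to 142.9 in controls) and vkg (23.0 to 33.7 and 36.6 to 57.6) are separated by genotype, whereas the points of the other 7 genes overlap.

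Within a library, the collagen genes were counted in a similar proportion in both genotypes. The number of Col4a1 reads for each vkg read was 2.93, 3.17, 3.27 and 3.0 in the mutants, or 3.09 ± 0.156 (SD, n = 4). The controls had 2.48, 2.84, 2.03 and 3.64, or 2.75 ± 0.683 (SD, n = 4). The mutant ratios lie inside the range of the controls, which was wider. Added together, the pair had 98.1 to 132.4 CPM in mutants and 169.9 to 200.5 CPM in controls. The summed reads were 212 against 318, a ratio of mutant to control of 0.622 once corrected for the totals.

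**Figure D3:**
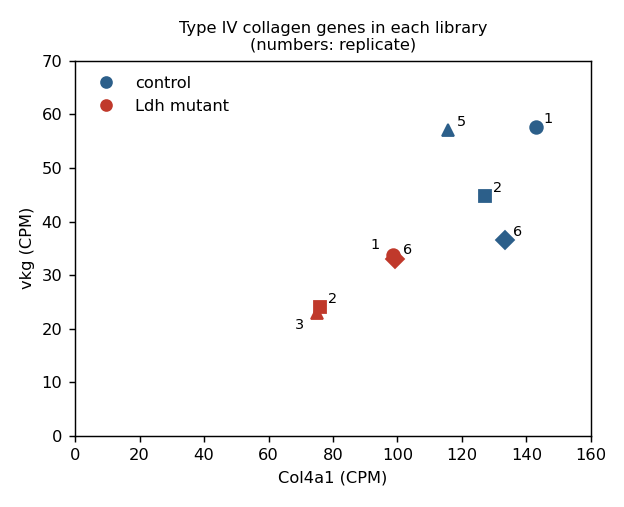
Level of vkg against Col4a1 in each library, both in CPM on linear axes from 0, with the replicate number beside each point. The 4 mutants (red) sit at 75.1 to 99.3 CPM of Col4a1 and 23.0 to 33.7 CPM of vkg, below and to the left of the 4 controls (blue).

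Pxn, which encodes a peroxidase that cross-links collagen IV, had the same level in both groups to within its spread. Mutant replicates 1, 2, 3 and 6 had 15, 18, 17 and 15 reads and control replicates 1, 2, 5 and 6 had 12, 10, 31 and 11. The mutants were close to each other, at 33.1 to 36.1 CPM, and the controls ranged from 23.5 to 53.6 CPM, with replicate 5 highest. The means were 35.2 ± 1.42 and 34.0 ± 13.4 CPM (SD, n = 4 each), and the log2 fold change was -0.002 (SE 0.28). This value rests on control replicate 5: without it the log2 fold change was 0.36 (SE 0.27). CG16986, opposite the end of Pxn, had more reads, 55 to 73 in mutants and 46 to 74 in controls, and a log2 fold change of 0.09 (SE 0.14).

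Over the whole comparison, 82 of 2589 features tested, 3.17%, were called (40 higher in mutants, 1.54%, and 42 lower, 1.62%) with edgeR's quasi-likelihood test at a Benjamini-Hochberg adjusted p under 0.05. Of the 3 basement membrane genes tested, 0 were called by edgeR, by DESeq2 or by limma-voom, and 2 (Col4a1 and vkg) had an unadjusted p under 0.05 with edgeR. With library totals in place of TMM scaling, Col4a1 passed, and the calls over all features were 38 higher and 66 lower. Groups that did not overlap were seen with the mutants lower in 4.98% of the features tested and with the mutants higher in 4.56%. Among the 3 members, Col4a1 and vkg were of the first kind and 0 of the second. The share of all features with an unadjusted p under 0.05 is not given here. Because the genes were chosen with this contrast known, nothing is read from these counts. The median log2 fold change was -0.57 over the 3 members and 0.01 over all features tested.

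The 3 listed laminin genes, whose products assemble as a trimer of 1 chain of each kind, were too thinly counted to compare one by one. LanA, an alpha chain gene, had 2, 2, 0 and 4 reads in mutant replicates 1, 2, 3 and 6 and 2, 3, 5 and 3 in control replicates 1, 2, 5 and 6. LanB1, the beta chain gene, had 2, 1, 2 and 0 against 0, 2, 2 and 3. LanB2, the gamma chain gene, had 1, 2, 3 and 2 against 3, 2, 4 and 2. Every one of them overlapped between the groups. The ratios of mutant to control reads were 0.574 for LanA (exact 95% interval 0.206 to 1.49), 0.666 for LanB1 (0.167 to 2.44) and 0.678 for LanB2 (0.237 to 1.85). These intervals and those of the other ratios cover counting error only, not the spread between libraries. Summed over these 3 genes, the mutants had 5, 5, 5 and 6 reads and the controls 5, 7, 11 and 8, which is 10.01 to 13.2 CPM against 12.5 to 20.9 CPM. The ratio of the 21 mutant to the 31 control reads was 0.632 (exact 95% interval 0.345 to 1.13). That interval holds both an equal level and the ratio of the collagen pair. A laminin difference of the size seen for collagen was thus not detectable with so few assigned reads.

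**Figure D4:**
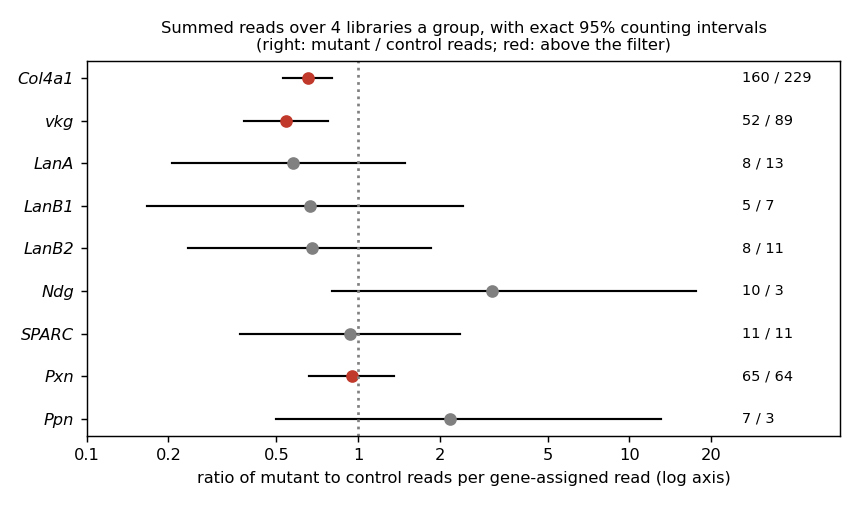
Ratio of mutant to control reads for each gene, on a log axis, from reads summed over 4 libraries a group and corrected for the gene-assigned totals. Lines are exact 95% intervals of counting error, the numbers at the right are mutant and control reads, and red marks the genes above the expression filter. The lines are shortest for Col4a1 (0.529 to 0.801) and longest for Ndg (0.8001 to 17.6) and Ppn (0.497 to 13.04), and since these counts chose the genes they are no test of a difference.

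The remaining matrix genes were equally sparse. Ndg encodes nidogen, a linker of the laminin and collagen networks, and had 0, 1, 6 and 3 reads in mutant replicates 1, 2, 3 and 6 against 1, 1, 1 and 0 in control replicates 1, 2, 5 and 6. Mutant replicate 3 held most of these reads. The ratio was 3.11 (exact 95% interval 0.8001 to 17.6). CG34222, opposite an exon of Ndg, was counted far more often, at 157, 140, 169 and 180 reads in the mutants and 102, 85, 199 and 104 in the controls. Its mean was 352.0 ± 51.1 CPM in mutants (SD, n = 4) and 267.9 ± 59.4 CPM in controls, with overlapping groups. The difference, 0.39 on the log2 scale (SE 0.16), was not called (edgeR quasi-likelihood test, adjusted p = 0.264).

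SPARC, a collagen-binding matrix glycoprotein gene, had 2, 2, 3 and 4 mutant and 4, 1, 5 and 1 control reads, 11 in each group. Its ratio was 0.932 (exact 95% interval 0.367 to 2.37). Ppn, the gene of a large secreted matrix protein related to ADAMTS proteases, had 1, 2, 1 and 3 mutant and 0, 1, 1 and 1 control reads, a ratio of 2.18 (exact 95% interval 0.497 to 13.04). The groups overlapped for both genes, and all 6 members below the filter had intervals that included 1. Among the 9 genes, mean CPM was lower in mutants for 5 (Col4a1, vkg and the 3 laminin genes) and higher for 4 (Ndg, SPARC, Pxn and Ppn). SPARC and Pxn were near equal, and by the ratio of summed reads, which is not TMM scaled, they were lower (0.932 and 0.947), which makes 7 lower and 2 higher. The 7 genes other than collagen had 55.4 to 68.4 CPM in mutants and 47.1 to 84.7 CPM in controls when summed, so the groups overlapped outside the collagen pair.

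Genes that make, bind or remodel the matrix, and markers of the tissues around it, were counted for comparison. These were 95 genes in 7 lists, of which 84 were found and 24 tested. edgeR called 0 of the 24, DESeq2 and limma-voom also called 0, and 2 had an unadjusted p under 0.05 with edgeR (PH4alphaMP and crq). The share called over all features, at an adjusted p under 0.05, was 3.17%. The share of all features with an unadjusted p under 0.05 is not given here, so nothing is read from the 2.

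Among genes for the hydroxylation, cross-linking and secretion of collagen, 2 of 15 could be tested. PH4alphaMP, a prolyl 4-hydroxylase alpha subunit gene opposite its relative PH4alphaSG2, had 20, 36, 16 and 25 reads in mutant replicates 1, 2, 3 and 6 and 8, 9, 12 and 13 in control replicates 1, 2, 5 and 6. Its log2 fold change was 1.14 (SE 0.30), with an edgeR adjusted p of 0.0513. Its groups overlapped in CPM, with mutant replicate 3 at 33.4 CPM and control replicate 6 at 34.0 CPM. The gene stood past the threshold under 6 of 18 other settings. Over all 18, fitted with edgeR, DESeq2 or limma-voom, the adjusted p ran from 0.0105 to 0.185. PH4alphaSG2, whose counts are not given here, may have contributed reads to this feature, so nothing is read from it on collagen. Sec23, a component of the COPII coat of secretory vesicles, had a log2 fold change of 0.10 (SE 0.23). The median of the pair was 0.62. PH4alphaEFB, the other prolyl 4-hydroxylase gene of the list, had at most 2 reads in any library.

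The 3 tested genes of other matrix proteins had a median log2 fold change of 0.03. The most counted were Glt, encoding glutactin, at -0.17 (SE 0.18), and magu, opposite asRNA:CR44297 and PIG-N, at 0.03 (SE 0.19). The 3 tested receptor and adhesion genes had a median of -0.08, with the integrin beta subunit gene Itgbn, opposite CG9265, at -0.21 (SE 0.13) and the focal adhesion kinase gene Fak at -0.08 (SE 0.22). The 3 tested protease and inhibitor genes had a median of -0.07. Of these AdamTS-B, opposite CG33080, was at 0.18 (SE 0.23) and the metalloprotease gene Mmp1, opposite Pof, at -0.07 (SE 0.26). Timp, the gene of the metalloprotease inhibitor, opposite Syn, was the lowest at -0.45 (SE 0.26). Each of these differences was smaller than 2 standard errors.

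**Figure D5:**
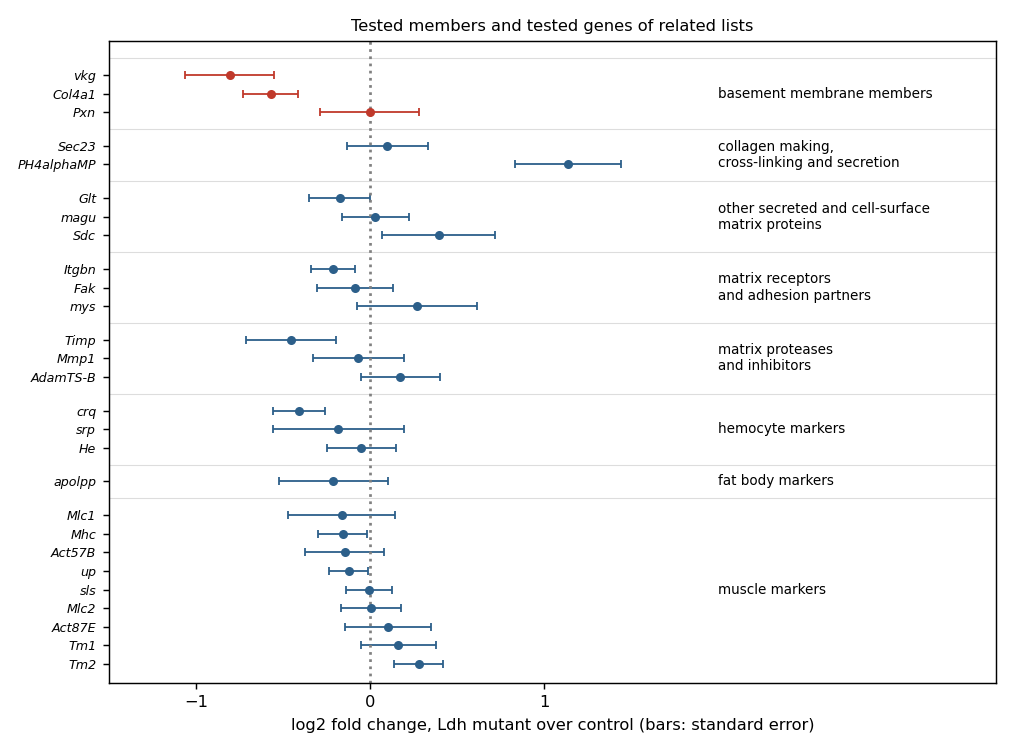
Log2 fold change of mutant over control for the 3 tested basement membrane genes (red) and the 24 tested genes of the related lists (blue), with bars of 1 standard error. Most of the related genes lie near 0, PH4alphaMP is the farthest to the right at 1.14, and vkg and Col4a1 are the farthest to the left at -0.80 and -0.57.

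Markers of the cells that make these proteins were read beside them. Whole larvae hold fat body, hemocytes and muscle, and in bulk RNA fewer cells of a type and less RNA per cell cannot be told apart. Of 13 hemocyte markers found, 3 were tested and 0 called. The phagocytosis receptor genes NimC4 and eater were at 0 in all 8 libraries and 7 of the 13 had fewer than 10 reads in all. The summed hemocyte level was 229.4 to 373.6 CPM in mutants and 327.0 to 368.2 CPM in controls. The scavenger receptor gene crq, opposite ex, was at -0.41 on the log2 scale (SE 0.15), with an adjusted p of 0.181 by edgeR, and the GATA factor gene srp at -0.18 (SE 0.38). The median of the 3 was -0.18. Of 12 fat body markers found, only apolpp, the gene of the lipophorin precursor (opposite Zyx), was tested, at -0.21 (SE 0.31), and the storage protein receptor gene Fbp1 had 0 reads. Mtp and Apoltp, genes for the assembly and transfer of lipids to lipoproteins, were the only members of the list whose groups did not overlap in CPM, both with the mutants lower. Mtp had 2, 1, 0 and 1 reads in mutant replicates 1, 2, 3 and 6 and 2, 3, 3 and 2 in control replicates 1, 2, 5 and 6, and Apoltp had 0, 1, 0 and 0 against 2, 1, 3 and 1. The highest mutant and the lowest control of Apoltp, replicate 2 of each, had 1 read each and differed only by the scaling. For Mtp, mutant replicate 1 and control replicates 1 and 6 had 2 reads each, so scaling alone separated them too. Neither Mtp nor Apoltp was tested. Other untested members went either way. Lsp1beta (6 mutant and 3 control reads), Lpin (6 and 4), Lsp2 (2 and 0) and Fbp2 (1 and 0) had more mutant reads. Ilp6 (0 and 3) and Lsp1alpha (0 and 1) had fewer. The shares of features without overlap given above cover tested features only, so nothing is read from the separation of Mtp and Apoltp. The summed fat body level was 22.03 to 48.5 CPM in mutants and 36.6 to 56.5 CPM in controls. Muscle markers were better covered, with 9 of 11 tested, 0 called, a median of -0.003 and a summed level of 1900.2 to 2368.6 CPM in mutants and 1960.0 to 2396.2 CPM in controls. The most counted were the troponin T gene up, at -0.12 (SE 0.11), and the myosin heavy chain gene Mhc, at -0.16 (SE 0.14). The summed levels of each of the 3 lists overlapped between the groups, and the part of these markers, Mtp and Apoltp included, in the collagen values was not tested.

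The features with a pattern over the 8 libraries nearest to that of Col4a1 were found by the Euclidean distance between log2(CPM + 1) values, each centred on its own mean. Nearest among 2588 were CG9150 (distance 0.260), CG13404 (0.302; opposite CG46317 and Tat), CG13330 (0.305; opposite Vmat), slv (0.389; opposite sut1) and asRNA:CR44054 (0.390; opposite ssp7 and CG15199). All 5 were lower in mutants, by log2 fold changes from -0.45 to -0.52. Its neighbour vkg came at rank 85 with a distance of 0.666, and Pxn at rank 1896 with 1.48. These distances describe 8 libraries in 2 genotypes and carry no test.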

How the data were processed

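The authors deposited raw counts of reads per gene, keyed by FlyBase identifier and not normalized. HTSeq 0.6.1p1, TopHat2 2.0.13 with Bowtie2 2.2.4, Trimmomatic 0.32, CASAVA and DESeq2 are named in the processing notes of the submitters. Genome build, annotation, library kit and strand setting of the counting are not given in the sources used here. The paper's methods describe transcript quantification of libraries with heterozygous controls, so they may not cover these files, and the labels were followed. The 5 summary lines of each file were left out of totals and tests; of everything counted, 1.24% to 1.62% was assigned to a feature, 65.1% to 77.2% fell in none, 21.2% to 33.7% aligned to several places and 0.0255% to 0.0350% was ambiguous.

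Positions, symbols and opposite-strand genes (50 bp or more of exon overlap) were taken from the BDGP6 annotation, release 115, in which 17151 of 17445 identifiers were placed. Coordinates are of that annotation, which may not be the one used for counting. Counts were fitted with edgeR 4.0.16 in R 4.3.3 (default expression filter, TMM, quasi-likelihood test, Benjamini-Hochberg over all features tested, adjusted p under 0.05), after the pipeline was tested on simulated data. Standard errors come from the fit's information matrix and quasi-likelihood dispersion. Ratios of summed reads have exact Clopper-Pearson 95% intervals. Alternatives were other scalings and filters, DESeq2 1.42.0, limma-voom (limma 3.58.1), robust estimation, a replicate block and leaving out each library. No pair of libraries of one genotype was near-identical (chi-square over degrees of freedom, 1.80 to 13.7), so 8 samples were kept. All members were named, with Ldh, the called or else the 2 most counted genes of each related list, and the 5 nearest patterns to Col4a1; other genes were added after their values were seen. The members and lists were chosen with earlier results of these data known.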

Additional observations from a re-analysis of the deposited data

Results flagged for a closer look

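Each set of 4 libraries was checked for a highest or lowest value far from the rest, by Dixon's test at its 95% critical value, which chance passes in about 1 of 20 sets. Only 1 of the 30 sets passed. It was lncRNA:CR45982, in an intron of Pxn on the other strand, where control replicate 6 stood at 5.23 CPM (2 reads) and no read was counted in control replicates 1, 2 and 5. None of the 9 basement membrane genes had a library apart in either genotype.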

How the results depend on the processing

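Under all 18 other settings the log2 fold changes of Col4a1 (-0.64 to -0.51) and vkg (-0.91 to -0.61) kept their sign. Leaving out 1 library gave -0.64 to -0.51 for Col4a1, -0.91 to -0.71 for vkg and -0.15 to 0.36 for Pxn. The value of Pxn became 0.35 with the replicate block, on libraries 1, 2 and 6 of both groups, 0.35 on those libraries without the block, and 0.36 without control replicate 5. The count of basement membrane genes called was 0 except with library totals, where it was 1 (Col4a1), and 0 to 0 when a library was left out. The count of related genes called was 1 without a filter, with robust estimation, with the replicate block and on the same 6 libraries without the block (PH4alphaMP each time), and 0 to 2 when a library was left out, the 2 being PH4alphaMP and crq without mutant replicate 3. Without control replicate 6 it was 1 (PH4alphaMP). Over all features, 82 calls became 184 without a filter (113 higher and 71 lower), 138 with the replicate block (63 higher and 75 lower), 118 on the same 6 libraries without the block (55 higher and 63 lower), and 57 to 168 with a library left out, the 168 without mutant replicate 3. The fit on the 6 libraries without the block was chosen after seeing the data. Same-numbered libraries did not deviate together (correlations of -0.11 to 0.01 over 3 pairs). With so few pairs and so few reads per library, this cannot show whether the numbers pair the samples. With at most 6 reads per library in 6 of the 9 genes, the number of assigned reads limits every statement on them.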
